A study of Saccharomyces cerevisiae with 8 samples.

Results

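Peak summits of Rpb1 that lay inside long genes were followed in budding yeast before galactose and 6 h after it. A member was any summit on chromosomes II, V and XI to XVI that lay between the annotated start and end of a protein-coding gene whose end minus start was at least 2500 bp in assembly R64. This gave 218 summits out of 4742 in the 4 lists together, and out of 2837 on these 8 chromosomes. By library there were 42 and 45 members at 0 h against 75 and 56 at 6 h, in replicates 1 and 2. They lay in 69 of 473 long genes.

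All libraries came from strain AM1003, labelled wild type, which carries the HO endonuclease under a galactose-inducible promoter (GAL::HO). The 0 h cells (2 immunoprecipitated libraries) were in raffinose medium without galactose, and the 6 h cells (2 libraries) had been in 2% galactose for 6 h, which induces the cut whose repair by break-induced replication the series addresses. The 6 h cells therefore differ from the 0 h cells by the sugar, by the break and by the time in culture, and these cannot be told apart here. The question named for the series is where polymerase II sits on template genes during this repair, and 4 input libraries of the design were not analysed here.

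Rpb1 is the biggest subunit of RNA polymerase II, the enzyme that transcribes protein-coding genes. A polymerase loads at the promoter upstream of the start codon, moves along the gene and leaves past its end. Immunoprecipitation of Rpb1 from sheared chromatin recovers the DNA under polymerases at every stage of that journey. A summit is the base at which 1 peak is highest, so in a broad peak that covers a whole transcribed gene its place can shift with small changes in coverage. Long genes separate the start from the end by more than the width of sheared fragments, so there a summit can be told to be near the start, in the middle or near the end. No sequence is shown, because only a gene table was used and no genome.

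Whether gene positions in R64 apply to the lists was checked with 151 landmark genes of ribosomal proteins, small nucleolar RNAs, glycolysis and translation on the 8 chromosomes. On each chromosome 87.5% to 100% of them had a summit within 250 bp, and the best shift of the landmarks was at most 200 bp. These chromosomes were kept because their landmarks matched, so this does not show that R64 fits the lists as a whole. On the chromosomes left out, except VI with its 3 landmarks, 0% to 27.3% of landmarks had a summit unshifted. The best shifts there were -1400 to -9000 bp. The offset common to both strands was 22.8 to 224.5 bp in size, depending on the chromosome. Distances below carry an uncertainty of that order, which may be larger locally.

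Long genes held a larger share of the summits in genes at 6 h than at 0 h. Of the summits inside any gene, 9.35% and 9.55% lay in long genes at 0 h against 17.6% and 16.4% at 6 h, in replicates 1 and 2. The means were 9.45% ± 0.14 (SD, n = 2) and 16.99% ± 0.87 (SD, n = 2), a difference of 7.54 percentage points that exceeds the spread between replicates. An exact permutation test of 2 against 2 libraries, two-sided, gave p = 0.33, which is the smallest p that this design allows. Summits inside any gene numbered 449 and 471 at 0 h against 426 and 342 at 6 h. All summits on the 8 chromosomes numbered 711 and 706 against 762 and 658, so a smaller part lay in genes at 6 h. Taken over all these summits, the share in long genes was also higher at 6 h, but by less. The 8 chromosomes' long genes make up 13.8% of their genes and 34.2% of the total gene length, so summits were fewer in long genes than their length alone would give at either time.

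The number of members was 43.5 ± 2.1 at 0 h and 65.5 ± 13 at 6 h (SD, n = 2; exact permutation p = 0.33). In shorter genes the summits were 407 and 426 against 351 and 286, so there the 6 h counts were the lower ones. The 6 h libraries themselves differed by 19 members. The share of long genes that held any summit was 6.77% and 7.40% against 10.6% and 8.46%, while in shorter genes it was 12.4% and 12.98% against 11.2% and 9.02%. In a culture, polymerase on a gene in fewer cells and less polymerase per cell cannot be told apart.

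**Figure D1:**
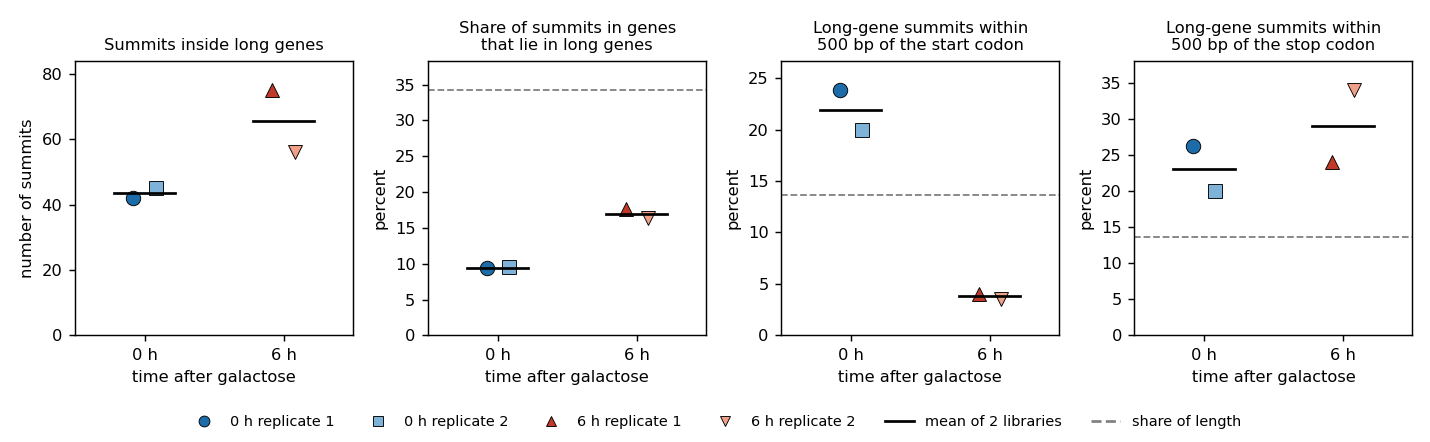
Values of each library (points, 0 h in blue and 6 h in red) and their means (black bars, n = 2 per time) for the number of summits inside long genes and 3 shares in percent. Dashed lines give the share of total gene length that lies in long genes (34.2%) or of long-gene length that lies within 500 bp of one end (13.6%). The 2 times separate in the share in long genes and near the start codon, and overlap near the stop codon.

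By length, the higher numbers at 6 h came from genes of 2500 to 3500 bp, with 24 and 26 summits at 0 h against 47 and 34 at 6 h, and from genes of 5000 bp and more, with 5 and 5 against 15 and 11. In the latter class REA1 and RRP5 supplied 9 and 6 of the 6 h summits, and without these 2 genes the counts were 5 and 5 against 6 and 5. Between 3500 and 5000 bp the counts were 13 and 14 against 13 and 11 and the times overlapped. Of the 286 genes of 2500 to 3500 bp, 5.94% and 6.29% held a summit at 0 h against 11.2% and 8.74% at 6 h. In the 66 longest genes these shares were 7.58% in each 0 h library, against 12.1% and 10.6%. Genes under 1000 bp went the other way, with 11.8% and 12.95% at 0 h against 9.05% and 8.02%.

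**Figure D2:**
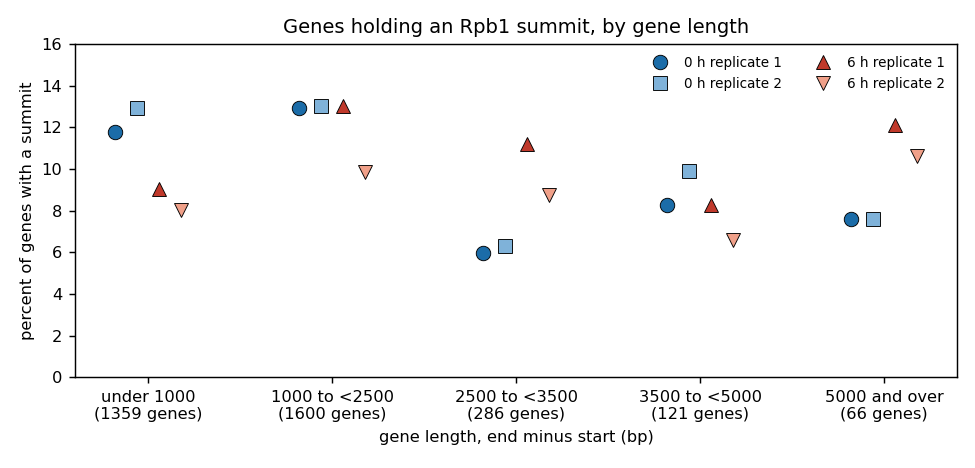
Percent of genes that held at least 1 summit inside the gene, by gene length (x axis, with the number of genes per class) and library (points). Both 6 h libraries lie above both 0 h libraries in the classes of 2500 to 3500 bp and of 5000 bp and over, and below them under 1000 bp.

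Members ranked below the middle of their own libraries by score. The deposited score of a summit is a −log10 of a p- or q-value, it grows with sequencing depth, and it was used here only to rank summits within a library. The median member stood at the 39.6 and 37.1 percentile of its library at 0 h and at the 32.4 and 32.8 percentile at 6 h, against 41.7 to 50.9 for summits in shorter genes. Scores ran from 2.11 to 73.8 and from 2.45 to 75.01 at 0 h, and from 2.03 to 64.8 and from 2.26 to 98.4 at 6 h. Members in the better-scoring 50% numbered 16 and 16 at 0 h against 20 and 14 at 6 h, so in that class the times overlapped in number. Long genes held 7.55% and 6.84% of the better-scoring summits in genes at 0 h against 11.1% and 10.4% at 6 h. Among the lower-scoring 50% the shares were 10.97% and 12.2% against 22.4% and 20.2%. How far detection of weak peaks differs between libraries was not tested, since read depth is unknown.

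Summits close to the start codon were common at 0 h and nearly missing at 6 h. Within 500 bp of the start codon lay 10 of 42 and 9 of 45 members at 0 h, against 3 of 75 and 2 of 56. The shares were 23.8% and 20% against 4% and 3.57%, with means of 21.9% ± 2.7 and 3.79% ± 0.30 (SD, n = 2). The difference of -18.1 percentage points is larger than the spread between replicates (exact permutation test over libraries, two-sided, p = 0.33). That zone makes up 13.6% of the length of long genes, so the 0 h shares lie above it and the 6 h shares below it. The 0 h excess was in the lower-scoring members, of which 34.6% and 24.1% lay in the zone, against 6.25% and 12.5% of the better-scoring 50%, both under 13.6%. Within 1000 bp of the start codon lay 15 and 15 members at 0 h against 16 and 7 at 6 h, so these counts overlapped. As shares they were 35.7% and 33.3% against 21.3% and 12.5%, which did not. In shorter genes the shares within 500 bp of the start were 47.7% and 48.4% at 0 h against 22.2% and 30.1% at 6 h.

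At 0 h the zone by the start codon held summits of 14 genes in all. SLA1, which encodes an actin assembly protein of endocytosis, had them 19 and 110 bp from that codon in replicates 1 and 2. The SLA1 summits were also 240 and 331 bp from LDB7, and which gene the peak belongs to was not tested. COS111 had them at 96 and 259 bp, and VPH1, for a membrane subunit of the vacuolar proton pump, at 294 and 164 bp. For HMG1, an enzyme of sterol synthesis, the distances were 351 and 295 bp, and for RPA135, the second-largest subunit of RNA polymerase I, 499 and 287 bp. These 5 genes had such a summit in both 0 h libraries. FAS1, KAP95, RPB2, ILS1 and RPA190 had it in replicate 1 alone, and DBP2, PFK2, YEF3, RPG1 in replicate 2 alone. At 6 h the zone held SLA1 (96 bp), OPT2 (407 bp) and HMG1 (420 bp) in replicate 1, and VPH1 (325 bp) and NEW1 (434 bp) in replicate 2. No gene had one in both 6 h libraries.

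At the end of the gene the times separated by some measures and not by others. Within 500 bp of the stop codon lay 11 and 9 members at 0 h against 18 and 19 at 6 h, and these counts did not overlap. As shares of each library's members they were 26.2% and 20% against 24% and 33.9%, so the groups overlapped, and the difference of 5.87 percentage points is smaller than the spread between the 6 h replicates (SD 7.02, n = 2; exact permutation p = 0.667). That difference was 10.8 points without 6 h replicate 1, 8.96 without 0 h replicate 1, 2.77 without 0 h replicate 2 and 0.905 without 6 h replicate 2. Within 1000 bp of the stop codon the shares were 40.5% and 35.6% against 42.7% and 46.4%, which did not overlap (exact permutation p = 0.33), and with 1 summit per gene the mean shares within 500 bp were 28.5% and 35.8% (exact permutation p = 0.33). All 4 shares lie above the 13.6% of length in that zone. Members more than 1000 bp from either end were 23.8% and 31.1% at 0 h against 36% and 41.1% at 6 h, below the 45.6% of long-gene length found there. Of the members near the stop codon, 2 of 11 and 1 of 9 at 0 h, and 6 of 18 and 4 of 19 at 6 h, were also within 250 bp of another annotated gene, and which gene such a peak belongs to was not tested.

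**Figure D3:**
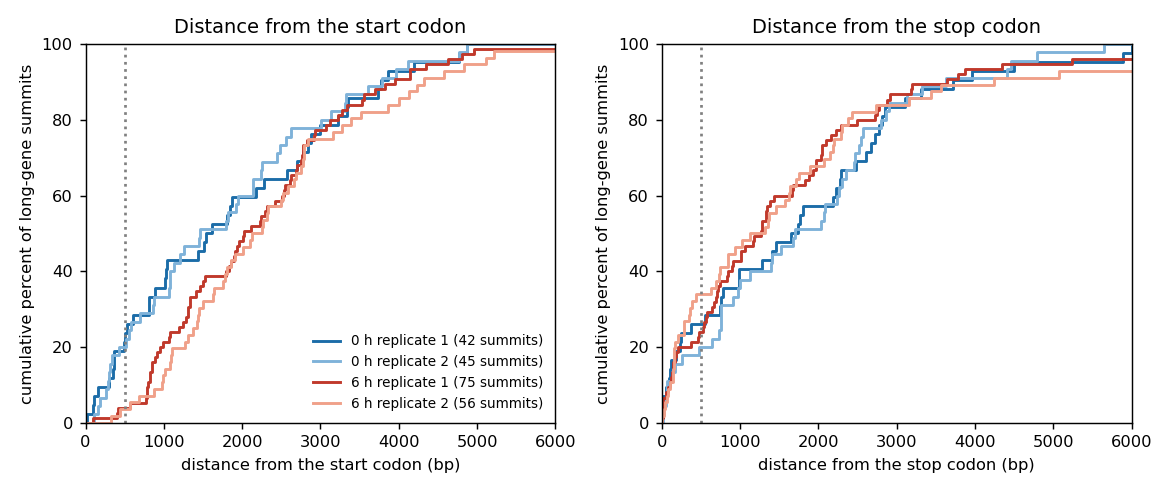
Cumulative percent of long-gene summits (y axis) by distance in bp from the start codon (left) and from the stop codon (right), 1 line per library. The dotted line marks 500 bp, reached from the start by 23.8% and 20% of summits at 0 h and by 4% and 3.57% at 6 h. A few summits lie beyond the end of the x axis.

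The typical member was nearer the stop codon at 6 h. Median distance from the start codon was 1578.5 and 1463 bp at 0 h against 2030 and 2187 bp at 6 h, with means of 1521 ± 82 and 2109 ± 111 bp (SD, n = 2). Median distance from the stop codon was 1692.5 and 1701 bp at 0 h against 1266 and 1224.5 bp at 6 h, or 1697 ± 6.0 against 1245 ± 29 bp. Scaled to gene length, with 0 for the start and 1 for the stop codon, medians were 0.529 and 0.462 at 0 h against 0.632 and 0.612 at 6 h. The difference of 0.13 exceeds the replicate SDs of 0.047 and 0.014 (n = 2; exact permutation p = 0.33). The lower quartile differed by 0.18 between times (0.146 and 0.149 against 0.313 and 0.340), whereas the upper quartiles overlapped (0.888 and 0.770 against 0.843 and 0.909).

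These medians depended on which summits entered. Among the better-scoring 50% of each library the difference in median distance from the start codon was -138 bp, the opposite direction, and the relative position differed by 0.041, with overlapping groups (exact permutation p = 1). With a length minimum of 3500 bp the difference in distance from the stop codon was 55 bp, against -452 bp with all members, and the relative position differed by 0.021 (exact permutation p = 1). Within the 16 genes that held a summit in all 4 libraries the relative position differed by 0.065, with overlapping groups (exact permutation p = 1), and the distance from the start codon by 299.75 bp instead of 587.75 bp. The lower share near the start codon kept its direction among the better-scoring 50%, with longer genes and in those 16 genes, at -9.38, -15.1 and -18.4 percentage points. Among the better-scoring 50% it rests on 1 and 2 of 16 summits at 0 h against 0 and 0 at 6 h. It also kept its direction with all positions moved by 250 bp either way (-8.20 and -7.27), and turned to 7.75 when they were moved 500 bp to the right, which is beyond the landmark offsets.

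In shorter genes the median relative position was 0.579 and 0.591 at 0 h against 0.821 and 0.784 at 6 h. The difference between times was thus 0.22 in shorter and 0.13 in long genes, and the difference of these differences was -0.092 (exact permutation over libraries, two-sided, p = 0.33, the smallest possible). It was -0.052 without 0 h replicate 1 and -0.131 without 0 h replicate 2, so its size depends on the library. In base pairs, the median in shorter genes was 526 and 515.5 bp past the start codon at 0 h against 824 and 790 bp at 6 h.

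By strand, the median distances from both ends pointed the same way on Watson and Crick genes, and the share near the stop codon did not. On the Watson strand (238 long genes) members numbered 18 and 20 at 0 h against 28 and 24 at 6 h. Their median distance from the stop codon was 1522 and 1600.5 bp at 0 h against 899.5 and 787.5 bp at 6 h, a difference of -718 bp. On the Crick strand (235 long genes), with 24 and 25 members against 47 and 32, it was 1692.5 and 2038 bp against 1432 and 1513.5 bp, a difference of -393 bp. The median from the start codon was 1855 and 1349 bp at 0 h against 2385 and 2195 bp at 6 h on the Watson strand, and 1475.5 and 1788 bp against 1909 and 2050.5 bp on the Crick strand. Near the start codon the shares were 16.7% and 15% against 0% and 4.17% on Watson genes, and 29.2% and 24% against 6.38% and 3.13% on Crick genes. Near the stop codon Watson genes had 22.2% and 25% at 0 h against 39.3% and 45.8% at 6 h, while Crick genes had 29.2% and 16% against 14.9% and 25%, which overlapped. The relative position differed between times by 0.20 on Watson genes and by 0.043 on Crick genes, and the difference between strands was not tested. With each chromosome's landmark offset subtracted, the relative position over both strands differed by 0.090.

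Sites found in both replicates of a time were also read separately. At 0 h, 19 and 20 members had a summit of the other 0 h library within 250 bp, and 8 and 9 of these had none within 250 bp at 6 h. Their medians were 672.5 and 691 bp from the start codon, at relative positions of 0.198 and 0.192. At 6 h, 28 members of each library were shared by the replicates and 18 and 20 of them had no 0 h summit within 250 bp. These stood at relative positions of 0.591 and 0.744, or 1127 and 770 bp from the stop codon. Such counts were not made for shorter genes, whose summits also lay farther along the gene at 6 h. Whether these sites are particular to long genes was thus not tested. Counted over pairs of libraries, 37.3% to 50.0% of members had a partner within 250 bp in the replicate and 16.1% to 40.5% in a library of the other time, with means of 44.3% and 24.7%. Among summits of shorter genes the same means were 61.4% and 37.9%.

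Of the 473 long genes, 14.6% held a summit in at least 1 library, against 21.2% of all 3432 genes. A summit in all 4 libraries was found in 16 long genes, or 3.38%, against 3.23% of all genes. A further 9 had summits in 3 libraries, 22 in 2 and 22 in 1. Of the last, 16 were found at 6 h and 6 at 0 h. The remaining 404 long genes had none, which does not show that polymerase was absent from them. Most occupied genes held 1 summit per library, and 7, 5, 15 and 10 genes held 2 or more, in the order 0 h replicates 1 and 2 and 6 h replicates 1 and 2. Neighbouring summits of a gene were a median of 846.5, 838, 826 and 903 bp apart in these libraries, and never closer than 359 bp.

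The 16 genes with summits in all 4 libraries were FAS1, FAS2, FKS1, PDR5, TSC11, VIP1, ILS1, HMG1, YEF3, EGT2, HPF1, RPG1, PFK2, DBP2, EFT1 and VPH1. Between them are the fatty acid synthase, the cell wall glucan synthase, a drug efflux pump and several genes of translation. In 5 of the 16 (31.2%) the best-scoring summits of both 6 h libraries lay downstream of both 0 h ones, and in 2 (12.5%) upstream. Among the 111 genes of any length in all 4 libraries these shares were 38.7% and 10.8%, so long genes were near the background. The median signed displacement was 254 bp, with 10 genes above 0 and 6 below, so opposite directions partly cancel in it. Single displacements ran from -1415 bp in HPF1 to 1838.5 bp in YEF3. Replicates lay a median of 402.5 bp apart at 0 h and 380 bp at 6 h. Those distances carry no sign, so the signed median cannot be compared with them. With 0 h replicate 1 left out, 14 genes were downstream by the relaxed rule, and 8 without 6 h replicate 2. Upstream genes numbered 7 without 0 h replicate 2, and 4 without either 6 h library.

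YEF3 encodes translation elongation factor 3, an ATPase specific to fungi. Its only summit in each library lay 530 and 338 bp into the gene at 0 h, against 1853 and 2692 bp at 6 h, with scores of 71.4, 75.01, 64.8 and 72.3. In the coordinates of the lists these are positions 637310, 637118, 638633 and 639472 of chromosome XII. The 6 h summits thus stood in the middle and towards the end of the gene and the 0 h ones near its start.

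FAS1 encodes the beta subunit of fatty acid synthase. Its summits lay 154 and 513 bp past the start codon at 0 h, against 914 and 1077 bp at 6 h, with scores of 38.5, 39.2, 33.1 and 33.3. All 4 stood in the early part of a gene of 6155 bp. FAS2, for the alpha subunit, showed no such order, since its 0 h summits lay 3857 and 875 bp from the start and its 6 h summits, 1793 and 1426 bp, between them.

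PFK2, for a subunit of phosphofructokinase, had summits 608 and 314 bp from the start at 0 h against 779 and 2248 bp at 6 h. DBP2, for an RNA helicase whose gene is interrupted by an intron, had 1866 and 184 bp against 1939 and 1915 bp. The 0 h replicates of DBP2 were thus 1682 bp apart, more than the 902 bp between the mean 0 h and 6 h positions. ILS1, the isoleucyl-tRNA synthetase, had its best summits at 1806 and 1813 bp at 0 h against 1892 and 1853 bp at 6 h, a separation of 63 bp between the means. It also carried further summits, 3 in all in 0 h replicate 1 and in 6 h replicate 1.

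HPF1, a mannoprotein of the cell wall, had its summits 2779 and 2142 bp into the gene at 0 h, against 1078 and 1013 bp, so both 6 h ones lay upstream. PDR5, the main pleiotropic drug efflux pump, had 3772 and 3780 bp against 3269 and 2105 bp, with the highest score of any member, 98.4, in 6 h replicate 2. These were the only long genes of the 16 with that order.

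**Figure D4:**
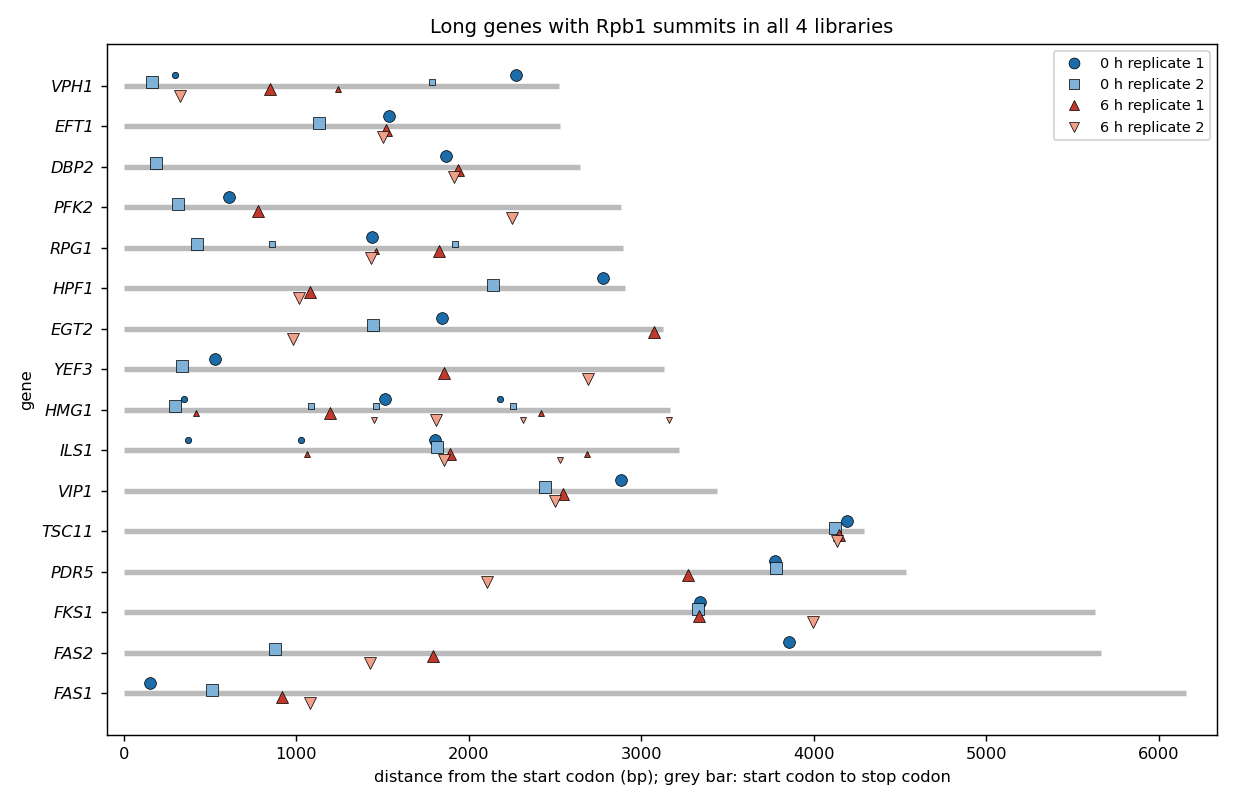
Position of every summit (x axis, distance from the start codon in bp) in the 16 long genes with a summit in all 4 libraries, 1 row per gene. Large symbols are the best-scoring summit of a library in that gene and small symbols its others, and grey bars run from start to stop codon. The large blue 0 h and red 6 h symbols separate in YEF3, FAS1, PFK2, HPF1 and PDR5 and lie close together in TSC11 and ILS1, and ILS1 also has smaller symbols of both times elsewhere.

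Among the other 9 genes the times overlapped. TSC11, for a subunit of the TOR complex 2, had the displacement of smallest size among the 16. Its summit lay 101, 169, 149 and 157 bp from the stop codon in 0 h replicates 1 and 2 and 6 h replicates 1 and 2. These summits were also 189, 257, 237 and 245 bp from IES5, and which gene the peak belongs to was not tested. FKS1, the catalytic subunit of glucan synthase, had 3341, 3327, 3335 and 3997 bp from the start codon, so 3 libraries agreed within 14 bp. VIP1, an inositol pyrophosphate kinase, lay between 2439 and 2883 bp in all of them, and EFT1, for translation elongation factor 2, had 1539, 1133, 1520 and 1505 bp. EFT1 has a near-identical copy, EFT2, so reads may have been shared between them. The cell separation gene EGT2 had 1844 and 1445 bp at 0 h against 3072 and 982 bp at 6 h, on either side. HMG1 held the most summits of any long gene, with 3, 4, 3 and 4.

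Of the 9 genes in 3 libraries, 6 lacked only 6 h replicate 2, the shortest list, and 2 lacked only 6 h replicate 1. UBR2, a ubiquitin ligase gene, had its summit 4868, 4867 and 4957 bp from the start in the libraries that held it, and SLA1 19, 110 and 96 bp. RTT10 had its best at 2989, 3006 and 2921 bp, which were also 171, 154 and 239 bp from RTC6. RPM2, for the protein subunit of mitochondrial RNase P, had 3228 and 3134 bp at 0 h and 828 bp in 6 h replicate 1, where its score of 2.08 was low. DSE4, a daughter-cell glucanase, had 1618, 1084 and 1310 bp. NEW1, a relative of elongation factor 3, had 815 and 691 bp at 0 h and 434 bp in 6 h replicate 2.

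Gained genes were those with summits in each 6 h library but none at 0 h, and lost genes the reverse. Gains were 13 of the 433 long genes without a 0 h summit, or 3%, against 2.58% of all such genes, a share near the background. Losses were 3 of the 27 long genes with summits in both 0 h libraries, or 11.1%, against 36.6% of all such genes and 39.2% of the 265 shorter ones. This difference rests on 3 genes and was not tested. With 2 libraries against 2, no test of these counts could give a p below 0.33. Leaving out 1 library relaxes the rule, and gave 20 gains without 6 h replicate 1 and 22 without 6 h replicate 2. Losses were then 7 and 5 without 0 h replicates 1 and 2, and 9 and 5 without 6 h replicates 1 and 2.

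The 13 gained genes were REA1, UTP20, RRP5, PDR12, YLR278C, KAP123, NMA111, PUT3, MNR2, ALA1, RSN1, NAN1 and MRD1. They held 27 and 23 summits at 6 h, and for 12 of them the flanking 250 bp were free of 0 h summits too, the exception being MNR2. Their best summits lay a median of 465 and 848 bp from the stop codon, and 8 and 5 of the 13 within 500 bp of it.

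UTP20, REA1, RRP5 and NAN1 act in ribosome assembly, UTP20 and NAN1 in the processome of the small subunit, RRP5 in processing of both subunits' RNA and REA1 as the large ATPase that remodels pre-60S particles. UTP20, 7481 bp long, had a single summit 19 and 79 bp from the stop codon, with scores of 19.0 and 15.5. In the lists these are positions 235098 and 235038 of chromosome II. The nearest other gene, HTA2, was 296 and 356 bp away, and which gene the peak belongs to was not tested. REA1, the longest gene of the genome part examined with 14732 bp, had 3 and 4 summits at 6 h, all between 1785 and 5219 bp from the start codon. RRP5 had 6 and 2 summits along its 5189 bp, and the summits nearest its end stood 379 and 352 bp from the stop codon in replicates 1 and 2. NAN1 had 3 and 2, of which the last stood 465 and 359 bp from the stop codon. Except for UTP20, scores in these genes were low, from 2.26 to 6.48.

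PDR12, an efflux pump for weak organic acids, had 2 and 3 summits with best scores of 11.6 and 8.10 at 1338 and 1101 bp from the start. ALA1, the alanyl-tRNA synthetase, had 3 in each library, the last of them 173 and 285 bp from the stop codon. PUT3, the activator of proline use genes, had a single summit 180 and 158 bp from the stop codon, and NMA111, a nuclear serine protease, 214 and 147 bp. The PUT3 summits were also 316 and 294 bp from URB1, and which gene the peak belongs to was not tested. RSN1, for a membrane protein, had its best at 1957 and 2013 bp with scores of 7.24 and 8.11. KAP123, an importin that carries ribosomal proteins into the nucleus, had a summit at 1303 and 1271 bp, in the body of the gene. MRD1, which acts in processing of ribosomal RNA and was in no list, had 1287 and 1095 bp, YLR278C its best at 3553 and 3278 bp, and MNR2 a summit 127 and 160 bp from the stop codon.

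The 3 lost genes had their best 0 h summits in the early part. ACC1, the acetyl-CoA carboxylase that makes the building block of fatty acids, had them 815 and 2244 bp from the start of a gene of 6701 bp, with scores of 31.2 and 26.6. RPA190, the largest subunit of RNA polymerase I, had 1038 bp, tied in score with a summit at 495 bp, and 580 bp, with scores of 4.84 and 4.28. COS111 had 96 and 259 bp with 5.05 and 5.66. None of the 3 had a summit within 250 bp of the gene in either 6 h library.

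**Figure D5:**
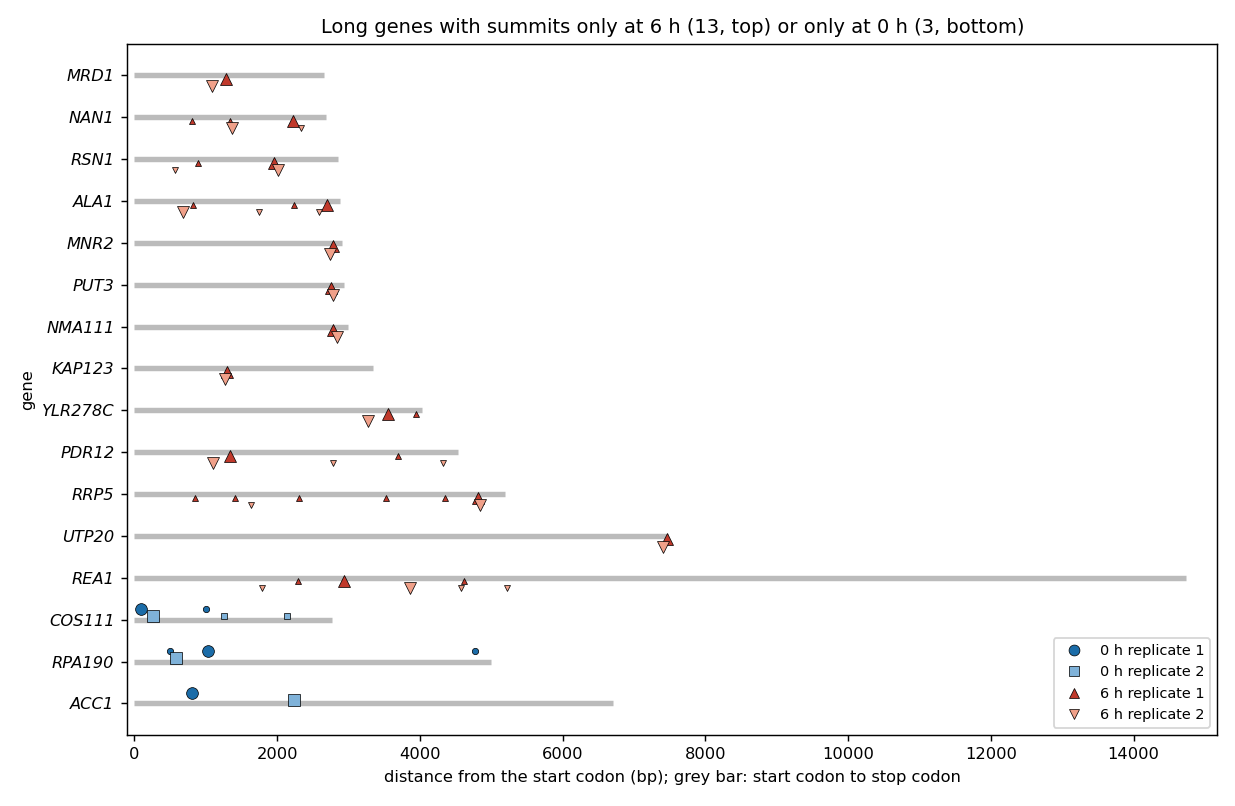
Position of every summit (x axis, distance from the start codon in bp) in the 13 gained and, below them, the 3 lost long genes. Symbols are as in the plot of genes in all 4 libraries. Red 6 h symbols in UTP20, PUT3, NMA111 and MNR2 sit at the end of the gene, and the large blue 0 h symbols in COS111 and RPA190 lie in the early part, with smaller ones farther along both genes.

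Genes of related function were read through 13 lists, of which 200 of 201 names were matched and 103 were long genes on the 8 chromosomes. Of the 12 ribosome biogenesis genes, 6 held a summit, against 14.6% of all long genes, with 0 and 1 at 0 h against 6 and 5 at 6 h. Beside the 4 gained genes these were DIP2 and RRP12. With 250 bp added to the gene, DIP2 had a summit in every library, at 0 h too. RRP12, needed to export ribosomal subunits, had a summit at 550 bp from the start in 0 h replicate 2, at 770 and 3127 bp in 6 h replicate 1, and at 1305 and 3520 bp in 6 h replicate 2. The list was drawn up with gains of such genes in these data already known, so its direction is not independent evidence.

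Among 5 large subunits of the RNA polymerases, 4 held a summit, with 3 and 3 at 0 h against 2 and 1 at 6 h. RPA190 of polymerase I was lost. RPA135 had 2 and 3 summits at 0 h and 1 in 6 h replicate 2, at 874 bp from the start. RPB2, the partner of Rpb1 in polymerase II, had its summit at 367 and 3610 bp at 0 h, so at opposite ends, and at 945 bp in 6 h replicate 1. RET1, of polymerase III, had 1 summit inside the gene, in 6 h replicate 1, and RPO31 none. With 250 bp added to the gene, RET1 had a summit in every library.

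Fatty acid and sterol synthesis had 4 of 6 genes with a summit (4 and 4 at 0 h, 3 and 3 at 6 h), of which FAS1 was downstream at 6 h and ACC1 was lost. HMG2, the second enzyme for the step of HMG1, and HFA1 had none. Translation factors had 4 of 6 (4 and 4 against 3 and 4), with 1 downstream and 0 gained or lost. RPG1, a subunit of initiation factor 3, had its best summit at 1437 and 425 bp at 0 h against 1828 and 1435 bp at 6 h. Of 4 aminoacyl-tRNA synthetase genes, 3 held a summit, with 1 and 1 at 0 h against 3 and 2 at 6 h. CDC60, for the leucine enzyme, had 2 summits in 6 h replicate 1 alone.

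Smaller numbers were found elsewhere. Of 12 genes of ABC transporters and listed membrane pumps 2 held a summit (PDR5 and PDR12), of 6 genes of cell wall synthases and adhesins 2 (FKS1 and CHS3), of 6 carbon metabolism genes 1 (PFK2) and of 2 amino acid genes 1. VPH1 and HPF1 were in neither of the first 2 lists. The last was LYS2, of lysine synthesis, with 1946 bp from the start in 0 h replicate 2 and 995 bp in 6 h replicate 1. CHS3, a chitin synthase, had a single summit 105 bp from the stop codon in 6 h replicate 2.

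None of the 24 long genes of DNA replication and repair had a summit inside the gene in any library, against 14.6% of all long genes, PIF1, POL1, POL2, REV1, REV3, RAD50, MEC1 and TOP2 among them. PIF1 encodes a helicase known to be needed for break-induced replication. Also without a summit were 10 chromatin and transcription genes such as SNF2, CHD1 and SPT5, 7 genes of vesicle coats and motors and 3 genes of protein quality control, HSP104, UBA1 and UFD4. With lists this short and that share, no count of 0 was tested. Outside the lists, DNL4, the DNA ligase of end joining, had a summit 45 bp from the stop codon in 6 h replicate 2, which was also 198 bp from UTP23, and MMS1, of a ubiquitin ligase that acts at stalled forks, 260 bp from it in 0 h replicate 2. A gene below the peak threshold at both times gives no information on change. Of 35 Ty and subtelomeric helicase genes, whose copies share reads, 1 held a summit (YOR192C-B in 6 h replicate 1).

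Genes seen in only 1 library had their summit near the stop codon in 16 of 22 cases, 6 at 0 h and 10 at 6 h. At 0 h these were VID22 (6 bp from the stop codon) and AVO1 (178 bp) in replicate 1, and ATG2 (12 bp), ECM32 (58 bp), SRC1 (70 bp) and MMS1 in replicate 2. At 6 h they included VAC14 (16 bp) and SYH1 (18 bp) in replicate 1, and SGD1 (34 bp) and SKI3 (68 bp) in replicate 2. The summits of VAC14, SGD1 and SKI3 were also 120, 139 and 183 bp from REH1, NUP2 and RPC82. That of SYH1 was 606 bp from SSE1. Several of these genes were seen in 1 library only because summits outside the gene were not counted. With 250 bp added to each gene, SYH1 had a summit in all 4 libraries and VID22 also in both 6 h libraries. ATG2 then had one in both 0 h libraries, and SGD1, SKI3, DNL4 and CHS3 in both 6 h libraries. A few genes kept a summit at the stop codon at both times in 1 library each, AIM3 at 2 and 21 bp, CLU1 at 99 and 9 bp and EDS1 at 132 and 145 bp. Over all libraries the zone held summits of 17 genes at 0 h, 3 of them in both replicates (RTT10, TSC11 and RPM2), and of 28 genes at 6 h, 8 in both. The 8 were UTP20, NMA111, PUT3, MNR2, ALA1, RRP5 and NAN1, all gained, and TSC11.

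By chromosome, both 6 h counts exceeded both 0 h counts on XI (1 and 1 against 3 and 3), XII (7 and 4 against 12 and 9), XIII (6 and 8 against 15 and 12) and XVI (5 and 8 against 17 and 12). On II, V, XIV and XV the times overlapped or tied, with 8 and 10 against 11 and 6 on II and 10 and 7 against 11 and 8 on XV. Chromosome XI had the largest landmark offset, so its few members are the least securely placed.

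At the length limit, APL4 (2498 bp), just outside, and HRD3 (2501 bp), just inside, had no summit in any library. Of the nearest genes with summits, FOL1 (2474 bp) was outside with 1 in each 6 h library, and LAF1 (2504 bp) inside with 1 in 6 h replicate 1.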

How the data were processed

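Rpb1 chromatin immunoprecipitation was analysed in 4 libraries, 2 at 0 h and 2 at 6 h. The labels do not say whether replicates were separate cultures, so p-values measure only the spread between these samples, which may be technical. The authors deposited 1 list of peak summits per library, not pooled, with a −log10 score of a p-value or q-value, and which of these applies is not given in the sources used here. Per the submitters' processing notes the tools were MACS2 2.2.7.1, Bowtie2 2.2.4, fastp 0.20.1 and SAMtools 1.10. For their settings, the build and the use of inputs, the sources used here give nothing. Depth is unknown.

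Summits were placed in protein-coding genes of a RefSeq table of R64 on the 8 chromosomes whose landmark genes matched it, with strand read from the systematic gene name. Summits of each library gave 1 value, and times were compared by exact permutation over libraries (Python 3.11.15, pandas 2.3.3). Named genes were, among genes in all 4 libraries, up to 10 displaced downstream and 5 upstream and the 5 longest; up to 8 gained and 8 lost genes with the highest lower score; the 3 with most summits; and up to 4 members of each list found in most libraries. Other genes, such as KAP123, MNR2 and those named for a summit near a gene end, were named after their values were seen. Of summits tied in score, the one farther from the start codon was taken. The members and lists were chosen with earlier results of these data known.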

Additional observations from a re-analysis of the deposited data

How the results depend on the processing

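Read depth is unknown, summits are few and 2 libraries against 2 cannot give p below 0.33, so stability was judged by direction alone. Of 118 alternative values of the shares and positions, 109 kept their direction. Some of these could not change, namely those of the replicate block and the long-gene positions without summits in a second gene. No member lay in a second gene. The share of summits in long genes and the relative position did so under every alternative run, but the groups of relative positions overlapped at 3500 bp, among the better-scoring 50%, in genes of all 4 libraries and with positions moved by 250 or 500 bp to the right. With the length minimum at 3500 bp the stop distance differed by 55 bp and the share near the stop by -0.423 points, with 5 gained, 1 downstream, 1 upstream and 5 genes in all 4 libraries. The better-scoring 50% gave -138 bp from the start, -2.23 points near the stop, 2 gained, 3 downstream and 9 in all 4 libraries. On the 4 chromosomes with the smallest offset there were 7 gained, 2 downstream and 9 in all 4. With 250 bp added to genes there were 23 gained, 7 lost, 9 downstream and 27 in all 4. Matching within 100 or 500 bp gave differences of 8.93 and 26.6 points between replicates and times, against 19.5 at 250 bp. With 1 library left out in turn, gains ranged from 13 to 22, losses from 5 to 9, downstream genes from 5 to 14, upstream genes from 2 to 7 and genes in all libraries from 16 to 22.

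The following were chosen after seeing the data. Moving positions by -500 bp gave -4.20 points near the stop and 0.0477 for long against shorter genes. Moving them by 500 bp gave 23.3 bp from the stop, -1.76 points near it, 7.75 points near the start, 28 gained, 6 lost, 4 upstream and 29 in all 4. Moves of -250 and 250 bp each gave 5 lost, and the former 1 upstream. Part of the changes in both sets of alternatives follows from fewer genes, summits or libraries, and the cause of the others was not tested.

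Both times use replicate numbers 1 and 2, and the correlation of same-numbered deviations was 0.10 over long genes and -0.0024 over all genes, and no label ties them, so no pairing was assumed. Under the replicate block, mean counts within same-numbered pairs were 22.5 gained, 11 lost, 13 downstream, 9.5 upstream and 22.5 in both libraries, because 1 library per time enters each pair. The shares and positions had the same difference with the block as without it, which follows from the arithmetic of means and is no result.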
